A study of Mus musculus with 12 samples.

Results

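The 100 genes described here were brighter in cultured mouse kidney tissue than in any freshly taken kidney of the same array series. They were selected on measured values. A score was computed for each gene as the lowest log2 signal among 4 cultured arrays minus the highest among 5 fresh kidney arrays, and the 100 highest scores were taken. Each log2 signal is relative to the 75th percentile of its own array, so 1 unit is a doubling and values of different genes are not comparable. Names starting with A_, chr, lincRNA, Col (collagens), Krt (keratins), Igfbp or Mmp were left out, as were genes with a value missing from the score. Of 34650 gene names on the array, 27131 remained, and 12848 of those had a lowest cultured value above the floor of -2.

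The series profiled mouse kidney development and kidney organoids on 12 one-colour Agilent arrays. Fresh kidneys of ICR wild-type mice came from 4 embryonic stages (E11.5, E13.5, then E15.5 and E17.5) and from newborns (P0), with 1 array per stage, and 1 further array held an E11.5 ICR kidney grown for 7 days. The organoids joined nephron progenitors and ureteric bud derived from mouse embryonic stem cells of a B6/129SV background to stromal progenitors of E11.5 ICR kidneys, and were profiled at day 0 (n = 3) and day 7 (n = 3). Both cultures were kept on transwell membranes in 50% Matrigel with DMEM/F12 and 10% fetal bovine serum, so every cultured array shares that medium and gel. The labels do not say whether the organoid replicates were separate cultures, and p-values measure the spread between these arrays. Kidney groups of 1 array have no spread of their own, and their comparisons borrow that of the organoid replicates.

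Cells in an explant meet conditions that an organ with a blood supply does not. When oxygen is low, the prolyl hydroxylases that mark hypoxia-inducible factor for destruction slow down, and the factor binds short ACGTG elements near genes for glycolysis, glucose uptake and vessel growth. Shortage of amino acids or misfolded protein acts through the translation factor eIF2α and the transcription factor ATF4, while stretch, serum and TGF-β act through SRF, YAP and SMAD factors on contractile and matrix genes.

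The name "bright only in cultured tissue" overstates the pattern. Of the 100 genes, 91 were well above background on all 5 fresh arrays, 0 were below it on all of them, and 100 were well above it on all 4 cultured arrays. The genes were thus brighter in culture, not restricted to it. Scores ran from 1.22 to 4.16 with a median of 1.65. A score of at least 2 was reached by 31 genes and a score of at least 3 by 8. Among the 12848 genes above the floor, 12.6% had all 4 cultured arrays above all 5 fresh ones, so the 100 are the top of a larger group. The last genes taken were Rtn2, Pmaip1 and Tnfsf13b, with scores of 1.22, 1.22 and 1.22, and those just outside included Adamtsl5 and an unnamed transcript, with 1.21 and 1.21.

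**Figure D1:**
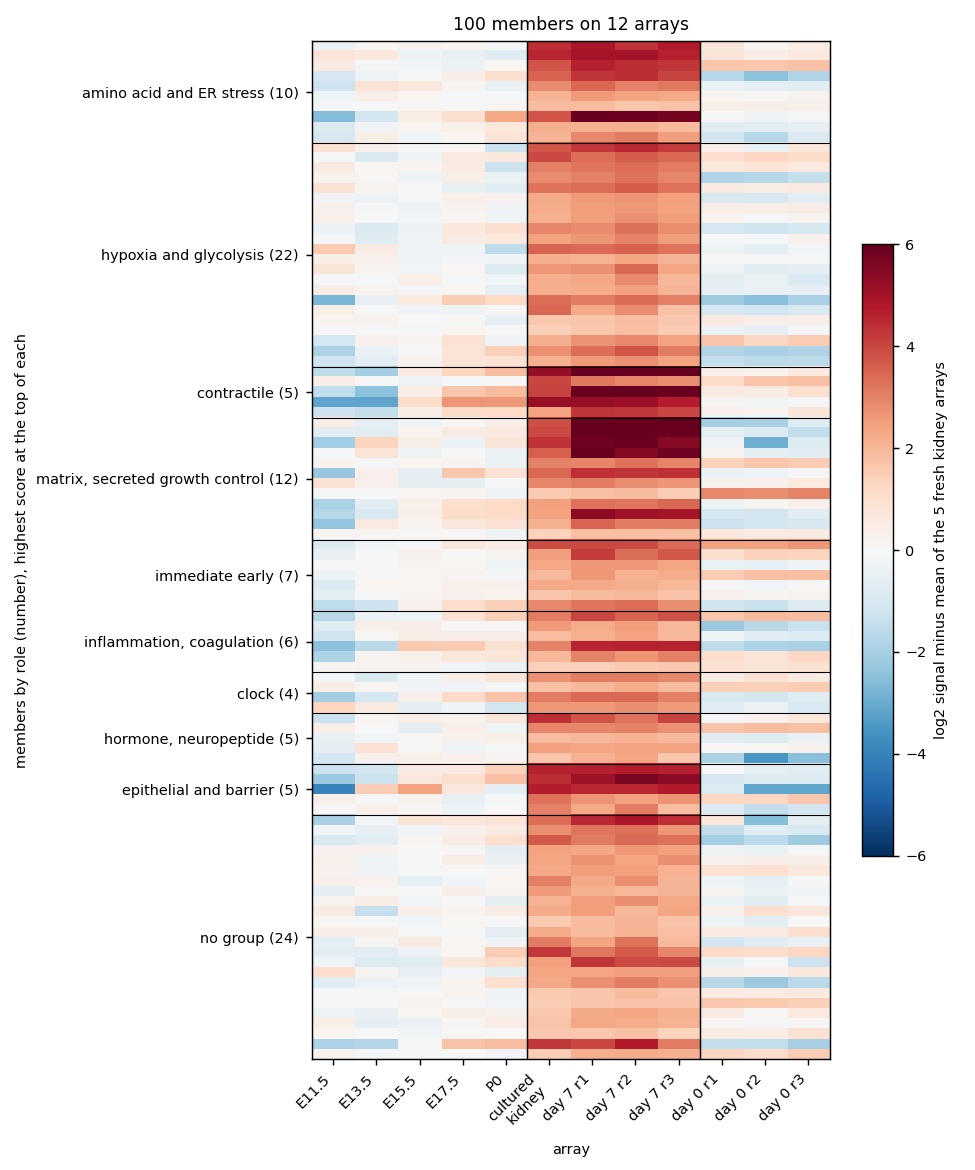
Each row is 1 of the 100 genes and each column 1 of the 12 arrays. Colour shows the log2 signal minus that gene's mean over the 5 fresh kidney arrays, clipped at 6 either way. The cultured kidney and day 7 columns are red throughout because those arrays chose the genes. The day 0 organoid columns on the right, which did not enter the score, hold both colours.

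The genes were sorted by known function after they had been chosen, which gave 10 genes of amino acid and endoplasmic reticulum stress, 22 of hypoxia and glycolysis, 5 contractile genes, 12 matrix and secreted growth-control genes, 7 immediate early genes, 6 of inflammation and coagulation, 4 clock genes, 5 of hormone and neuropeptide signalling and 5 epithelial genes. The other 24 were placed in no group. The group names are broad, and the matrix and secreted group also holds Fgf11 and Plod1, whose proteins act inside the cell. Lists of 5 values over fresh kidney run from E11.5 to P0 in order of age.

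The 2 highest scores belonged to stress genes. Chac1 encodes an enzyme that degrades glutathione and is a known ATF4 target. Its log2 signal was -1.91, -1.47, -1.38, -1.46 and -1.63 in fresh kidney. It was 2.86 in the cultured kidney and 3.34, 2.79 and 3.21 in the day 7 organoids. The cultured values lay far above every fresh stage, and the score of 4.16 corresponds to a 17.9-fold gap between the nearest arrays. At day 0 the organoids read -0.93, -1.47 and -1.14, so 2 of the 3 lay just above the highest fresh stage and none came near the cultured arrays.

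Trib3, a pseudokinase that restrains AKT and ATF4, read -0.17, -0.31, -1.27, -1.39 and -1.68 across fresh kidney, lower at each later stage. It read 3.59 in the cultured kidney, 4.04, 4.02 and 3.68 at day 7 and -0.19, -0.56 and -0.40 at day 0. The day 0 organoids therefore sat within the fresh range. Aldh1l2, a mitochondrial folate enzyme, gave -3.49, -4.08, -4.14, -4.37 and -3.86 in fresh kidney, -0.20 in the cultured kidney and 0.64, 0.44 and 0.31 at day 7. Its day 0 values of -2.30, -2.35 and -2.21 were above every fresh stage and below every cultured array.

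The rest of the stress group comprised the secreted glycoprotein gene Stc2, the transcription factor genes Atf5 and Cebpb, the cationic amino acid transporter gene Slc7a3, the glycine transporter gene Slc6a9, the chromatin-associated stress gene Nupr1 and the pro-apoptotic gene Pmaip1, with scores between 1.22 and 2.57. Nupr1 read higher at each later stage of fresh kidney, at -4.16, -2.69, -1.14, -0.64 and 0.74, as did Stc2 and Cebpb. It reached 2.18 in the cultured kidney and 4.43, 4.30 and 4.18 at day 7. The day 7 organoids exceeded the cultured kidney by 2.12 ± 0.15 (SE, adjusted p = 0.00188), the only one of the 10 stress genes past the threshold in that comparison, in which 3.18% of all genes tested were higher.

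Promoter windows were available for 75 of the genes in the RefSeq table (GRCm38.p6), each running from 250 bases before to 50 after a transcription start. A gene with several listed starts was counted for a motif if any of its windows held it. The C/EBP-ATF element through which ATF4 acts was searched as TGATGNAA on both strands, a search added after the genes were known. It was present in 3 of the 7 stress genes with a window and in 4 of all 75, or 5.3%, against 4.5% of 27025 genes in the table. The upstream stretches of the top-ranked gene and of Nupr1 are shown because both hold the same 8 bases, in capitals, on the minus orientation of the motif.
Chac1, chr2:119351013-119351092, plus strand: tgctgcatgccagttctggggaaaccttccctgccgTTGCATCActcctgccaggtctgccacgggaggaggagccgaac
Nupr1, chr7:126625537-126625616, minus strand: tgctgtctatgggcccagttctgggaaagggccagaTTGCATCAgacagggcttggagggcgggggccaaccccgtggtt
These matches describe the sequence and were not tested as binding sites.

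Hypoxia and glycolysis formed the largest group. Mgarp, which encodes a mitochondrial protein induced by hypoxia, had the highest score of the 22 (2.80). It read -0.99, -1.59, -2.0, -1.81 and -3.18 in fresh kidney, 1.81 in the cultured kidney and 2.35, 2.63 and 2.29 at day 7. Its day 0 values of -1.60, -2.31 and -1.26 fell inside the fresh range. Eno2, a glycolytic enolase otherwise known from neurons, read -1.44, -2.22, -1.64, -0.83 and -0.75 in fresh kidney, 2.56 in the cultured kidney and 1.99, 2.25 and 2.06 at day 7. Here the day 0 organoids, at -0.36, -0.14 and -0.28, already exceeded every fresh stage. A list of 6 neuron markers, 5 of them well above background on all day 0 arrays, was summed as linear signal on each array. The sum is given in log2, and the brightest markers weigh most in it. It was 4.42 to 4.64 at day 0, at most 3.13 in fresh kidney, 2.05 in the cultured kidney and 0.54 to 1.18 at day 7. The part of these markers in the Eno2 values was not tested.

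Other members of the group have known roles in glucose uptake, glycolysis, acid disposal and vessel growth. They include the glucose transporter genes Slc2a1 and Slc2a3, the glycolytic genes Pfkp, Aldoa and Aldoc, the regulator gene Pfkfb3 that raises glycolytic flux, Pdk1, which diverts pyruvate from mitochondria, and Slc16a3, which exports lactate. Car9 encodes a carbonic anhydrase that disposes of acid, Bnip3 a mitophagy receptor, Vegfa the main vessel growth factor and Egln1 the oxygen-sensing prolyl hydroxylase itself. P4ha1 and P4ha2 encode collagen prolyl hydroxylases. In 10 of the 22 the highest fresh stage was E11.5 and in 5 it was P0.

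Against E11.5 kidney, 5 of the 22 genes were lower in the day 0 organoids and 2 higher at an adjusted p under 0.05, with a median difference of -0.38. Over all genes tested there, 12.9% were lower and 14% higher. E11.5 kidney was 1 of the 5 ceilings in the score, so a gene dim there was more readily taken and every count against it leans toward higher at day 0. Slc16a3 read 3.58 in E11.5 kidney and 1.71, 1.44 and 1.87 in the day 0 organoids, a difference of -1.90 ± 0.19 (SE, adjusted p = 0.00226). Ankrd37, a small ankyrin-repeat gene induced by hypoxia, read 0.44 against -1.59, -1.50 and -1.21, a difference of -1.88 ± 0.20 (SE, adjusted p = 0.00262). Slc2a1, Vegfa and Car9 were the other 3 lower genes, at -0.92, -0.61 and -1.37. The Car9 call was lost without any single day 0 replicate, with adjusted p between 0.0779 and 0.0884, and its difference was 0.012 with a normexp background correction. The higher genes were Ppp1r3c, a glycogen-targeting phosphatase subunit, at 2.57 and Eno2 at 1.17.

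The hypoxia response element core ACGTG was searched on both strands. It occurred in at least 1 window of 16 of the 20 hypoxia and glycolysis genes that had any, or 80.0%. It occurred in 17 of the other 55 genes with a window, or 30.9%, and in 21.8% of all 27025 genes. The wider hypoxia list described below also holds Stc2, Rora and Bhlhe40, which were placed in other groups and can be among those 55. Of the genes in that list that were not selected here, 13 of the 22 with a window held the core, or 59.1%. These letters also lie inside the E-box CACGTG, which was present in 3 of the 20 and in 8.1% of all genes. The genes had been placed in the group for their known link to hypoxia, so the share describes the group and does not test it. All 5 of its genes that were lower at day 0 than in E11.5 kidney held the core in at least 1 window. The upstream match of Vegfa lay 211 bases before 1 listed start, in letters that also read as Vegfa protein-coding sequence, and is not shown. Upstream stretches of the other 4 are shown with Bnip3 and Egln1, 2 genes that were not lower there. The core or its reverse complement is in capitals (6 capitals mark an E-box).
Slc16a3, chr11:120949017-120949066, plus strand: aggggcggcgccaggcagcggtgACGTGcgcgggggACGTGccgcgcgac
Ankrd37, chr8:45999851-45999892, minus strand: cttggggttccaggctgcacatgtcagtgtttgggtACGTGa
Slc2a1, chr4:119108673-119108744, plus strand: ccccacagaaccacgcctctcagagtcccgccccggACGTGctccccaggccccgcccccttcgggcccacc
Car9, chr4:43506972-43507025, plus strand: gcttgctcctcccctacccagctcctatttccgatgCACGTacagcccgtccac
Bnip3, chr7:138909573-138909649, minus strand: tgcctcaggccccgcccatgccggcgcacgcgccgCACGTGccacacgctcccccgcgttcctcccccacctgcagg
Egln1, chr8:124949282-124949358, minus strand: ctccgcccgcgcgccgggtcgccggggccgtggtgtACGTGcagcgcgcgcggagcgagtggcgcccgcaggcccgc
Slc16a3 carries the core at a pair of positions within the stretch shown, and Bnip3 carries it as part of an E-box.

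The other motifs are common short sequences, and their shares were as follows. The AP-1 site TGANTCA was in 8 of the 75 genes with a window (all genes 9.0%) and the TEAD site GGAATG in 12 (16.0%, all genes 16.6%). The TATA box TATAAA was in 13 (17.3%, all genes 15.7%), the E-box in 11 (14.7%, all genes 8.1%) and the CArG box, the SRF site, in 2 (2.7%, all genes 1.8%). None of the contractile genes with a window held a CArG box in these 300 bases, which says only that the letters are not in that window.

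All contractile genes but Tnnt2 were brighter at the later fresh stages. Actg2 encodes smooth muscle gamma actin and read -3.11, -3.68, -1.09, -0.31 and 0.28 across the fresh stages. It read 3.67 in the cultured kidney, 6.08, 5.70 and 5.66 at day 7 and -1.29, -1.37 and -1.05 at day 0. The day 7 organoids were thus above the cultured kidney, which was above every fresh kidney. Myh11, the smooth muscle myosin heavy chain gene, was not well above background at E11.5 and E13.5, then read -2.91, -1.35 and -1.42. The cultured kidney gave 1.25 and the day 7 organoids 1.24, 1.15 and 0.71. The day 0 organoids, at -3.95, -4.16 and -4.05, were at least 2.72-fold above E11.5 kidney (adjusted p = 0.000996).

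Cnn1 and Tagln, which encode the actin-binding proteins calponin and transgelin, followed Actg2. Against the cultured kidney the day 7 organoids were higher by 2.14 ± 0.21 (SE, adjusted p = 0.00549) for Actg2, by 2.03 ± 0.25 (SE, adjusted p = 0.0104) for Cnn1 and by 1.74 ± 0.23 (SE, adjusted p = 0.0138) for Tagln. With slide as a block these 3 calls were lost, with differences of 1.86, 1.52 and 1.27 and adjusted p of 0.0744, 0.0779 and 0.0953. Myh11 and the troponin gene Tnnt2 were not past the threshold, at -0.22 and -1.05. All 5 contractile genes were higher in day 0 organoids than in E11.5 kidney, by between 1.13 and 3.12, where 14% of all genes tested were higher. The smallest, Tnnt2 at 1.13, lost its call with slide as a block (0.99, adjusted p = 0.0625) and without day 0 replicate 2 or 3 or day 7 replicate 2 or 3, with adjusted p between 0.0533 and 0.0649. A list of 6 smooth muscle markers, 4 of which are among these genes, was summed as linear signal on each array. The log2 of the sum was 3.08 to 6.11 in fresh kidney and 4.81 to 5.21 at day 0. It was 7.23 in the cultured kidney and 8.78 to 9.10 at day 7. Those 4 genes were chosen for being brighter in culture, so the sum leans the same way. Of the other markers, Acta2 read at most 5.32 in fresh kidney, 5.99 in the cultured kidney and 7.38 to 7.71 at day 7. Des did not follow the sum. It read 1.52, -0.03, -0.50, -1.19 and -1.83 in fresh kidney and 1.21 to 1.3 at day 0. With 0.29 in the cultured kidney and 0.98 to 1.12 at day 7, both cultured tissues lay below E11.5 kidney and above the later fresh stages. In such bulk RNA, more cells of a type and more RNA per cell cannot be told apart.

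**Figure D2:**
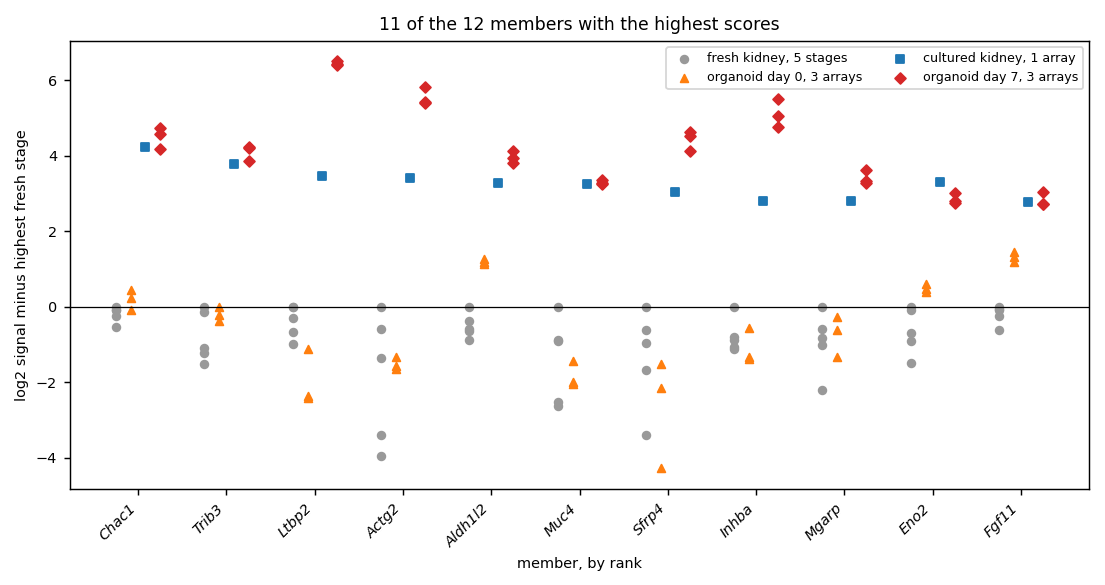
Of the 12 genes with the highest scores, 11 are placed along the horizontal axis. The vertical axis gives each array's log2 signal minus the gene's own highest fresh stage, with 1 point per array. For Ltbp2, Actg2 and Inhba the day 7 organoids lie above the single cultured kidney array, whereas for Muc4 and Fgf11 the points of both lie together. The day 0 triangles of Aldh1l2, Eno2 and Fgf11 lie above the zero line.

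Matrix and secreted growth-control genes held 6 of the 11 genes that differed between the cultured tissues. Ltbp2 encodes a microfibril protein of the latent TGF-β binding family. It read -2.99, -3.97, -3.66, -3.28 and -2.98 in fresh kidney, 0.49 in the cultured kidney and 3.52, 3.43 and 3.42 at day 7. The day 0 values of -5.39, -5.34 and -4.11 were below every fresh stage, and only 1 of those 3 arrays was well above background. The gene was far brighter in day 7 organoids than in the cultured kidney, which itself exceeded every fresh stage.

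Inhba, the activin A subunit gene, read -3.41, -2.53, -3.59, -3.32 and -3.64 in fresh kidney, 0.28 in the cultured kidney, 2.98, 2.23 and 2.52 at day 7 and -3.10, -3.85 and -3.91 at day 0. Ctgf, now named Ccn2, is a matricellular YAP target and read higher at each later fresh stage, at -0.52, 0.27, 1.53, 2.27 and 2.31. It read 3.58 in the cultured kidney, 6.54, 6.26 and 6.16 at day 7 and 0.17, 0.06 and 0.56 at day 0. Its score was therefore low, at 1.27, although its day 7 level was well clear of both kidney groups.

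Day 7 organoids exceeded the cultured kidney for 6 of the 12 matrix and secreted genes and fell below it for none at the adjusted threshold. At an unadjusted p under 0.05 limma gave 8 higher and 0 lower. Among them the differences were 2.97 ± 0.49 (SE, adjusted p = 0.0259) for Ltbp2, 2.74 ± 0.24 (SE, adjusted p = 0.00377) for Ctgf and 2.30 ± 0.40 (SE, adjusted p = 0.0308) for Inhba. Adamts2, a procollagen protease gene, differed by 1.07 ± 0.21 (SE, adjusted p = 0.0429) and Gdf10, a TGF-β family ligand gene, by 0.91 ± 0.12 (SE, adjusted p = 0.0159). With slide as a block the calls of Inhba (adjusted p = 0.142), Adamts2 (0.318) and Gdf10 (0.128) were lost. Without 1 day 7 replicate, Ltbp2 had adjusted p between 0.0615 and 0.0715 with a difference between 2.94 and 2.99. Adamts2 lost its call without any single day 7 replicate or day 0 replicate 1 or 2, with adjusted p between 0.0562 and 0.0855, and Inhba and Gdf10 theirs without day 7 replicate 1 or 3, with adjusted p between 0.0554 and 0.078. The remaining 6 genes lay between -0.06 and 1.39, the last being Sfrp4, a secreted WNT antagonist whose day 7 values were 1.92, 2.02 and 1.54 against 0.44.

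Matn2, a filamentous matrix adaptor, was the exception to the group. It read 1.89, 1.94, 2.07, 2.09 and 1.72 in fresh kidney and 3.50 in the cultured kidney. The day 0 organoids were its brightest samples, at 4.83, 4.75 and 4.91, and the day 7 organoids read 3.70, 3.85 and 3.42. It was the only one of the 100 genes to fall from day 0 to day 7, by 1.17 on the log2 scale (SE 0.13, adjusted p = 0.000318).

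Immediate early genes respond within minutes to serum or handling, and many of them encode transcription factors. Fos read -4.73, -4.09, -4.05, -3.25 and -3.49 in fresh kidney, 0.00 in the cultured kidney and 0.02, 0.06 and -0.54 at day 7. Its day 0 values of -1.50, -1.50 and -1.26 lay between the fresh and the cultured arrays, with no overlap on either side. Egr1, a zinc-finger factor of the same early wave, read 0.67, 1.08, 1.13, 1.16 and 0.95 in fresh kidney and 2.52, 2.81 and 2.82 at day 0, against 2.96 in the cultured kidney and 3.58, 3.1 and 3.22 at day 7. At day 0 it was already close to its cultured level.

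Against E11.5 kidney, 5 of the 7 early genes were higher in the day 0 organoids, with Fos at 3.31 ± 0.26 (SE, adjusted p = 0.00125), Egr1 at 2.05, Egr2 at 1.69, the AP-1 subunit gene Fosl2 at 0.80 and the NF-κB cofactor gene Bcl3 at 0.73. Of all genes tested 14% were higher, and the lean from the choice of genes applies here too. Maff and Ier3 were not past the threshold, at -0.32 and 0.44. Between day 7 organoids and cultured kidney none of the 7 passed the adjusted threshold in limma (1 higher and 0 lower at an unadjusted p under 0.05), and their differences ran from -0.16 to 1.25.

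In the inflammation and coagulation group, Osmr, the oncostatin M receptor gene, read -3.82, -2.49, -2.43, -1.24 and -0.72 in fresh kidney and -0.49, -0.18 and -0.31 at day 0. With 0.91 in the cultured kidney and 1.87, 1.38 and 1.67 at day 7, its day 0 arrays lay above all fresh arrays. The difference from E11.5 kidney at day 0 was 3.49 ± 0.21 (SE, adjusted p = 0.000731) and the largest of the 94 tested. Serpina3g, a serine protease inhibitor gene, differed by 2.86 ± 0.22 (SE, adjusted p = 0.00121) there. Ptgs2, which encodes the inducible cyclooxygenase, was not well above background on any day 0 array and read -1.94 in the cultured kidney and -0.34, -0.32 and -0.32 at day 7, a difference of 1.61 ± 0.18 (SE, adjusted p = 0.00783). The chemokine gene Ccl2 read -1.09, -0.79 and -1.34 at day 7 against -0.77 in the cultured kidney. The tissue factor gene F3 read 2.59, 2.85 and 2.43 against 2.29, and neither difference passed the threshold. The log2 of the summed linear signal of 6 macrophage markers was 3.21 to 3.84 in fresh kidney and 3.16 in the cultured kidney. It was 1.67 to 1.94 at day 0 and 1.27 to 1.94 at day 7, so the sum was no higher in the cultured arrays. Csf1r alone read 1.58 to 1.85 at day 0 and 1.12 to 1.35 at day 7. Only 2 of the 6 markers were well above background on all day 0 arrays, and 3 on all day 7 arrays. C1qa read -0.53 in the cultured kidney and at most -0.60 in fresh kidney.

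The clock genes were the orphan receptor gene Rora, the output factor gene Dbp, the repressor gene Bhlhe40 and Ciart, which encodes a repressor of the CLOCK complex. Rora read -2.78, -3.61, -2.92, -2.38 and -1.97 in fresh kidney, 0.02 in the cultured kidney and 0.32, 0.34 and 0.17 at day 7, with -2.27, -1.86 and -2.25 at day 0. Between day 7 organoids and cultured kidney the 4 genes differed by 0.03 to 0.27, and limma called none, also at an unadjusted p under 0.05. At day 0, Dbp and Bhlhe40 were higher than in E11.5 kidney by 1.06 and 1.19. Ciart was lower, but no day 0 array was well above background for it, so the difference is given as at least 3.56-fold (adjusted p = 0.00238). With a normexp background correction that difference was 0.001 on the log2 scale.

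Among hormone and neuropeptide genes, Tac2, which encodes a tachykinin precursor, read -3.65, -2.22, -2.06, -2.16 and -1.66 in fresh kidney, 2.10 in the cultured kidney, 1.43, 0.92 and 1.72 at day 7 and -2.35, -2.09 and -1.70 at day 0. Gfra2, a co-receptor gene for neurturin, read 2.69 in the cultured kidney and 2.61, 2.67 and 2.68 at day 7 (difference -0.04). The group also held the receptor genes Vipr1, Drd4 and Pgr, and limma called none of the 5 between day 7 organoids and cultured kidney, also at an unadjusted p under 0.05. A further probe of Vipr1 did not show the pattern and scored -0.75.

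The epithelial genes make surface and barrier proteins. Muc4 encodes a membrane mucin and was well above background on 1 of the 5 fresh arrays, P0 reading -4.72. It read -1.47 in the cultured kidney and -1.46, -1.37 and -1.45 at day 7 (difference 0.04) and was not well above background at day 0. A further Muc4 probe, well above background on 3 of the 4 cultured arrays, scored -1.15. Sprr2g, a cornified-envelope gene, read -6.23, -0.75, 0.17, -1.53 and -2.81 in fresh kidney, peaking at E15.5, then 2.48 in the cultured kidney and 2.28, 2.28 and 2.51 at day 7. The water channel gene Aqp5 read 0.54 and 1.19, 1.74 and 1.46 in the same order. The log2 of the summed linear signal of 6 urothelium markers was 2.17 to 4.26 in fresh kidney and 4.03 in the cultured kidney. At day 0 it was 2.88 to 3.16, but Trp63 alone read 2.75 to 3.06. Only 3 of the 6 markers were well above background on all day 0 arrays. Trp63 read 2.01 to 2.61 in fresh kidney. At day 7 the sum was 2.72 to 5.48, with Krt5 at 2.05, 4.23 and -1.34. The part of urothelium in the values of the epithelial genes was not tested.

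Of the 24 genes in no group, Cdkn2b, the p15 cell-cycle inhibitor gene and a TGF-β target, had the highest score. It read -6.26, -4.49, -3.60, -3.71 and -3.53 in fresh kidney, -0.97 in the cultured kidney and 0.19, 0.56 and 0.08 at day 7. Rbp4, the plasma retinol carrier gene, read -1.56, -1.30, -1.17, -0.73 and 0.00 in fresh kidney and stood at 1.34 in the cultured kidney, 1.78, 2.19 and 1.79 at day 7 and -2.64, -3.15 and -2.57 at day 0. The aryl hydrocarbon receptor repressor gene Ahrr, the heat shock gene Hspb8 and the mitochondrially encoded ND6 were also in this set. Pnmal2 was the one gene of the 100 not past the threshold between day 7 and day 0 organoids, at -0.87, -0.87 and -1.03 on day 0 and -0.78, -0.73 and -0.77 on day 7.

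The next comparisons set the whole list against all genes tested. Between day 7 and day 0 organoids, 98 of the 100 genes were higher and 1 lower, with a median difference of 2.82. Over 21956 genes tested, 23.6% were higher and 45.1% lower and the median was -0.24. The day 7 arrays had chosen the list, so nothing is read from these counts. Within the slide that held all day 7 arrays and day 0 replicate 3, day 7 exceeded day 0 on all 3 arrays for 99 genes and the median difference was 2.73.

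The second comparison was between the cultured tissues. Both supplied values to the score, which took the lowest of 1 kidney and 3 organoid arrays, so the choice of genes is not neutral between them and the counts are a description. The cultured kidney was the lowest of the 4 for 56 genes. Day 7 organoids were higher than the cultured kidney for 11 genes and lower for 0, with 89 not past the threshold and a median of 0.23. At an unadjusted p under 0.05 limma gave 25 higher and 5 lower. Of 22891 genes tested, 3.18% were higher and 3.29% lower, with a median of -0.05. All 11 belonged to 4 groups, being 6 matrix and secreted genes, 3 contractile genes, Nupr1 and Ptgs2. By limma none of the 22 hypoxia and glycolysis genes was called, with 3 higher and 2 lower at an unadjusted p under 0.05. Their differences ran from -1.19 for Car9 to 0.68 for Adm, the adrenomedullin gene. Day 7 arrays were above the cultured kidney on all 3 replicates for those 56 genes and below it on all 3 for 14, against 45.3% and 33.9% of the 12848 genes above the floor. No slide held both tissues. With slide as a block, resting on the day 0 organoids of both slides, the counts were 6 and 0 (all genes 120 and 99). They were 7 and 0 without day 7 replicate 1 or day 7 replicate 3. Scaling each array to its median moved the median of all genes to 0.16 and gave 18 higher genes of the list and 1162 of all genes.

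**Figure D3:**
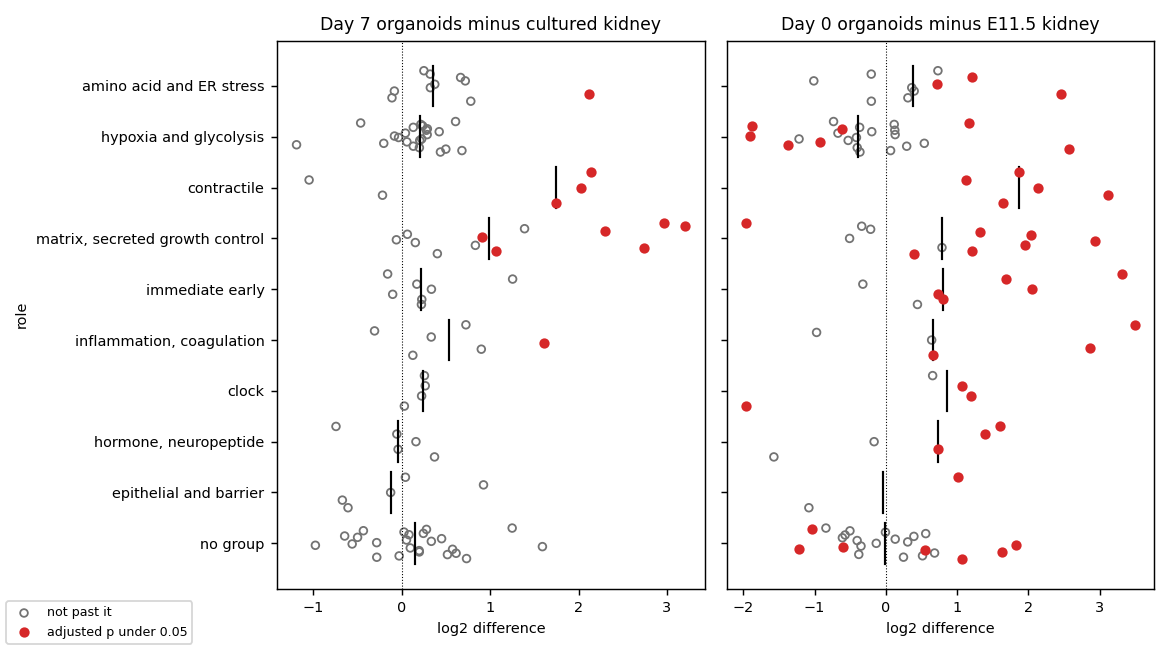
Log2 differences are plotted by function group, 1 point per gene, for day 7 organoids minus cultured kidney (left) and day 0 organoids minus E11.5 kidney (right). Filled red points had an adjusted p under 0.05 and vertical bars mark the group median. The red points on the left lie in 4 groups and all to the right of zero, while on the right the contractile genes are all red and higher and the hypoxia group holds 5 red points below zero.

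The third comparison used the day 0 organoids, which had no part in the score and entered only through the choice of probe. E11.5 kidney was 1 of the 5 ceilings in the score, so the counts lean toward higher at day 0 and are a description. Of 94 genes tested, 34 were higher at day 0 than in E11.5 kidney, 10 lower and 50 not past the threshold, with a median of 0.31. Of 23314 genes tested, 14% were higher and 12.9% lower, with a median of 0.03. Within the slide that held E11.5 kidney and day 0 replicates 1 and 2, the median difference over the 100 genes was 0.38, and with slide as a block the counts were 30 and 10. The lower count was 6 without day 0 replicate 1 or without day 7 replicate 1, which enters through the shared spread. The 75th percentile signal of the day 0 arrays was 143.9 to 155.8, against 237.2 to 335.3 on the other arrays, and 84 of the 100 genes were well above background on all 3 of them.

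Set against the whole fresh series, 26 genes had all 3 day 0 arrays above the highest fresh stage. Of the 12848 genes above the floor, 25.6% did, a share close to that of the list. All 3 day 0 arrays were below the lowest fresh stage for 14 genes, against 11.7% of the genes above the floor. For 3 genes a day 0 array exceeded the lowest cultured value. The count above fresh kidney was 29, 28 and 29 for day 0 replicates 1, 2 and 3 taken alone, and replicate 3, hybridised on the slide of the day 7 arrays, was higher than the mean of the others by a median of 0.13.

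The change over culture was then compared directly between kidney and organoids, in a contrast added after the data had been seen. It sets day 7 minus day 0 organoids against cultured minus E11.5 kidney. The score used the cultured kidney as a floor and E11.5 kidney as a ceiling but no day 0 array, so the choice of genes favours a large rise in kidney and the counts are a description. The median change over the 100 genes was 2.94 in kidney and 2.82 in organoids, and the organoid change was the larger for 48 genes. The changes differed at an adjusted p under 0.05 for 27 genes, 10 with the larger rise in organoids and 17 with the larger rise in kidney. Of 24321 genes tested, 6.27% and 6.34% were called in those directions, and the median over them was -0.10 against -0.07 for the 100 genes. Without any single day 7 replicate the count of larger rises in organoids was 6, and without day 7 replicate 3 the other was 11. With slide as a block the counts were 7 and 15 (all genes 1010 and 904).

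Ltbp2 had the largest excess in organoids, at 4.93 ± 0.70 (SE, adjusted p = 0.0134), and Inhba had one of 2.51 ± 0.58 (SE, adjusted p = 0.0431). Ankrd37, Slc16a3 and Vegfa of the hypoxia group were also on that side, at 2.12, 1.82 and 0.91. The contrast is the day 7 difference minus the day 0 difference and shares its arrays with both. For Ltbp2 those differences were 2.97 and -1.96. The latter rests on day 0 arrays of which 1 was well above background for the gene. It was 0.03 with a normexp background correction, which lowered the excess to 2.71, and lost its call without day 0 replicate 1 or 2 or any single day 7 replicate, with adjusted p between 0.0559 and 0.0634. The Inhba call was lost without any single day 7 replicate, with adjusted p between 0.0543 and 0.0897, without day 0 replicate 2 or 3 (0.0723 and 0.0657) and with slide as a block (0.0678). On the other side stood Fos at -3.47 ± 0.37 (SE, adjusted p = 0.00676), Myh11 at -3.34 ± 0.32 (SE, adjusted p = 0.00517), Matn2 at -2.78 ± 0.26 (SE, adjusted p = 0.00487) and Osmr at -2.77 ± 0.31 (SE, adjusted p = 0.00741). For Fos the day 7 and day 0 differences were -0.16 and 3.31, and for Osmr 0.73 and 3.49. The Myh11 difference rests on an E11.5 array where the gene was not well above background.

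**Figure D4:**
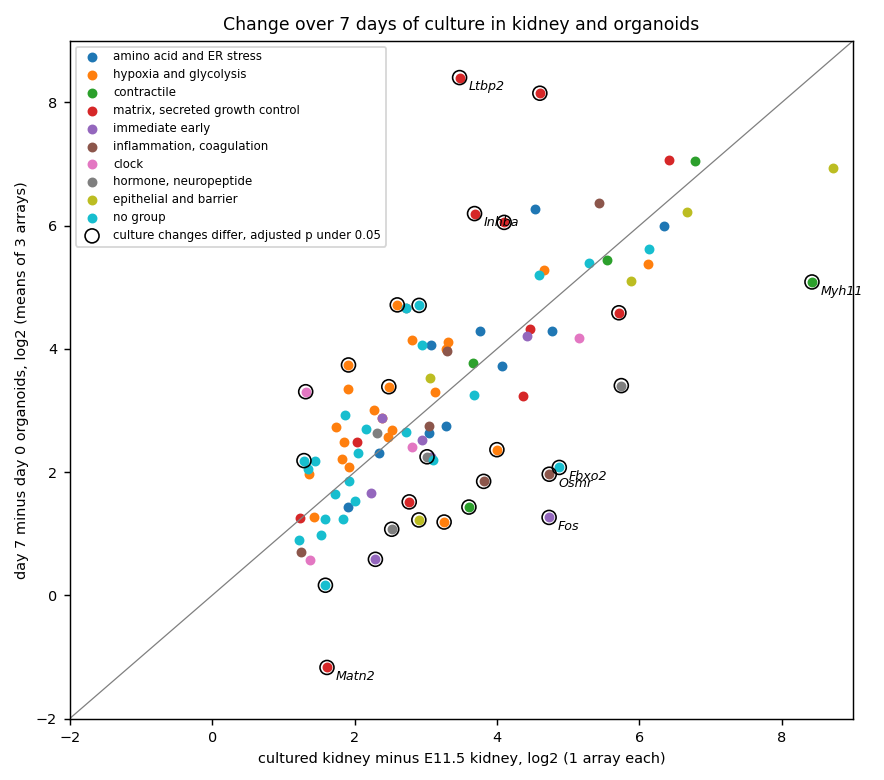
Each point is 1 of the 100 genes. The horizontal axis gives cultured kidney minus E11.5 kidney (1 array each), the vertical axis day 7 minus day 0 organoids (means of 3 arrays), both in log2, and the line marks equal change. Ringed points had unequal changes at an adjusted p under 0.05, and several of the most unequal are labelled. Ltbp2 lies highest above the line, while Myh11, Fos and Osmr lie well below it and Matn2 is the single point under zero.

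Wider gene lists, drawn up with earlier results of these data known, placed the members among their pathways. Of 46 hypoxia and glycolysis genes in such a list, 19 were among the 100. Among the 24 tested that were not, 19 were higher and 3 lower at day 7 than at day 0, with a median of 1.50. Of all genes tested, 23.6% and 45.1% were. The rise was not particular to this list. Outside the 100, 46 of 52 barrier genes were higher (2 lower, median 2.98) and 39 of 49 injury genes (1 lower, 2.85). So were 23 of 26 interferon genes (0 lower, 2.12), 43 of 59 matrix genes (12 lower, 1.92) and 16 of 31 contractile genes (11 lower, 0.33). Against the cultured kidney, 1 of 25 hypoxia genes outside the 100 was higher and 0 lower, with a median of -0.02. Of all genes tested, 3.18% and 3.29% were. In the list of 51 YAP, SRF and TGF-β targets, 10 were members, and 15 of the other 41 were higher in day 7 organoids than in the cultured kidney and 0 lower, with a median of 0.64. Among contractile genes outside the 100, 8 of 31 were higher and 1 lower in the same comparison, with a median of 0.43. No member belonged to the cartilage, interferon or macrophage lists. At day 0, where 12.9% of all genes tested were lower than in E11.5 kidney and 14% higher, 8 of 24 hypoxia genes outside the 100 were lower than in E11.5 kidney and 1 was higher, with a median of -0.35, and 11 of 30 contractile genes outside it were higher and 2 lower, with a median of 0.58.

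Other probes of the same genes were not used by the score, although they measure the same RNA on the same arrays. For 26 of the 100 genes the array carried 29 further probes. Over all 29, 24 had every cultured array above every fresh one, 13 had a score of at least 1, and the median score was 0.94. The 5 below 0 belonged to Cdh13, Muc4, Vipr1, Fgf11 and Pfkp, with -2.30, -1.15, -0.75, -0.51 and -0.16, the Cdh13 probe being well above background on 0 of the 4 cultured arrays. Spread was wider among these genes than elsewhere: the median SD over the 3 day 7 arrays was 0.19, against 0.08 over all genes above the floor.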

How the data were processed

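Gene expression was measured on 12 one-colour Agilent arrays of 8 groups. Per the file headers, the authors' scanner files hold Cy3 intensities made with Feature Extraction 11.5.1.1, background-subtracted and already processed, whereas the submitters' processing notes name version 10.7.3.1. Design coordinates in the files are mm9. The deposited series table holds the authors' log2 values of the same probes, and its normalization is not given in the sources used here. It served as an alternative.

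The log2 of the processed intensity minus each array's 75th percentile was computed, with control spots and flagged outliers left out and spots of a probe averaged. Each gene name was represented by its probe of highest mean over the 12 arrays. Of the 100 members, 98 matched the RefSeq gene table (GRCm38.p6), 96 of them by accession. Groups were compared with limma 3.58.1 in R 4.3.3 (lmFit and eBayes, two-sided). Each contrast covered genes detected well above background throughout at least 1 of the groups that it set against each other. P-values were adjusted by Benjamini-Hochberg over all genes tested and called under 0.05. The fits were tested on simulated data. Organoids were compared in a fit of 6 arrays, and the other contrasts in a fit of 8 arrays in which the lone kidney arrays are assumed to vary like organoid replicates. A fold is given as "at least" where one group was not well above background on any array, against the lowest signal that was. The number of arrays limits the precision.

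Slide 1 held the kidney arrays and day 0 replicates 1 and 2, and slide 2 the other 4. Replicate numbers did not pair the organoids, since same-numbered samples correlated at -0.06, -0.22 and -0.05. The members and gene lists were chosen with earlier results of these data known. Genes named are the 12 of highest score, up to 5 per list, the 6 largest called differences each way per comparison and the genes beside the limit of the list; others named were chosen after their values were seen, and a few that the rule takes are not reported here.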

Additional observations from a re-analysis of the deposited data

Results flagged for a closer look

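The change over culture differed between organoids and kidney at an adjusted p under 0.05 (limma) for 27 of the 100 genes, 10 with the larger rise in organoids and 17 with the larger rise in kidney, and these are listed because the difference itself was tested. On the organoid side the excess was 4.93 for Ltbp2 and 2.51 for Inhba. It was 2.12 for Ankrd37, 1.99 for Ciart, 1.95 for Ctgf, 1.82 for Slc16a3 and 1.80 for Rbp4. On the kidney side the genes named were Fos at -3.47, Myh11 at -3.34, Matn2 at -2.78 and Osmr at -2.77. Smaller values belonged to Tnnt2 at -2.17, Ppp1r3c at -2.07, Serpina3g at -1.96 and Eno2 at -1.64. Fgf11 stood at -1.25, Gdf10 at -1.13 and Gfra2 at -0.77. With slide as a block the counts were 7 and 15, and the calls of Rbp4 (adjusted p = 0.09), Inhba (0.0678) and Fgf11 (0.0776) were lost. Leaving out single organoid replicates also ended the calls of Rbp4 (adjusted p up to 0.076), Inhba (up to 0.0897), Fgf11 (up to 0.0778), Gfra2 (up to 0.1) and Tnnt2 (up to 0.0622). The score had used both kidney arrays and no day 0 array, which favours a large rise in kidney. Each value rests on 1 array of E11.5 kidney and 1 of cultured kidney.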

How the results depend on the processing

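Between day 7 organoids and cultured kidney, where 11 genes were higher and 0 lower, normexp gave 27 and 5. Moderation with trend and robust settings gave 20 and 3, scaling to the array median 18 higher, slide as a block 6 higher, and the mean of all probes 1 lower. The counts over all genes tested, 727 higher and 754 lower, moved as well. They became 1896 and 2076 with normexp and 1320 and 1314 with trend and robust moderation. Scaling to the median gave 1162 and 434, slide as a block 120 and 99, and the mean of all probes 637 and 646. Leaving out 1 organoid replicate gave 7 to 13 higher and 0 to 1 lower. Against E11.5 kidney, the 10 genes lower at day 0 became 16 with trend and robust moderation, while over all genes 3007 became 3509. Without 1 replicate they were 6 to 10. In the culture-change contrast, the 10 and 17 genes became 20 and 29 with normexp, 6 higher with no background filter, and 6 to 10 and 11 to 17 without 1 replicate. Over all genes tested, 1525 and 1541 became 3133 and 9030 with normexp and 1090 and 1363 with no background filter. Normexp also turned the sign of the day 0 difference from E11.5 kidney for Ltbp2 (0.03), Ciart (0.001) and Car9 (0.012), and of the culture-change contrast for Gdf10 (0.072) and Ciart (-0.012). These reversals concern genes near background on some of the arrays. The cause of the other changes was not tested. Of the single-gene values of named genes under all alternatives, 2321 kept direction and side of the threshold, 48 passed it newly, 72 lost it and 5 reversed. The same rule took 64 of the 100 genes with no floor, 31 when a score above 2 was asked for, and 62 to 100 without 1 array, the fewest without the cultured kidney. With a replicate block, day 7 against day 0 gave 98 higher and 1 lower, as without it, and the replicate numbers do not pair the samples. Over the genes of low signal at day 0, background limits every fold.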
